A study of Mus musculus with 2 samples.

Results

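The Mir130 and Mir301 seed family was followed through small RNA libraries of the newborn mouse heart. Its 4 members, Mir130a, Mir130b, Mir301 (also written Mir301a) and Mir301b, were taken by gene name from the 1973 microRNA genes in the deposited count tables, and all 4 were present. The samples were single whole hearts of B6NCrl mice, a C57BL/6N substrain, taken on postnatal day 0. The hearts of pup 1 (replicate 1) and pup 3 (replicate 2) each gave a library of RNAs under 30 nt from total RNA. No treatment, altered allele or second condition was labelled, and sex was not collected, so the 2 hearts form 1 group and the data give levels, ratios between members and the spread between hearts. Each heart gave a single library, so animal and library preparation cannot be told apart.

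MicroRNAs are cut from hairpin precursors and guide silencing complexes to messenger RNAs, mainly through the seed, bases 2 to 8 from the 5′ end. Genes with the same seed can share many targets, and the rest of the sequence and the host locus set them apart. The Mir130 and Mir301 family is known from vessels and from growth: miR-130a is known to repress the homeobox factors Meox2 and Hoxa5 in endothelial cells and the cardiac cofactor Zfpm2. The family is also known for repressing Pparg in the vessel wall.

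The sequences that define the family are given first, because the counts of its members rest on telling them apart. The mature sequences come from the RefSeq tables for GRCm38.p6, the same assembly as mm10, in which 7 of 1738 mature sequences have the seed AGUGCAA. Capitals mark that seed. Mir301b is not among the 7, because RefSeq gives only the mature sequence from its 5′ arm. Its hairpin is shown instead, with the same 7 letters in capitals.
miR-130a-3p: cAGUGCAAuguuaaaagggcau
miR-130b-3p: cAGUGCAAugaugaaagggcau
miR-301a-3p: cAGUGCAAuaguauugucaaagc
Mir301b hairpin: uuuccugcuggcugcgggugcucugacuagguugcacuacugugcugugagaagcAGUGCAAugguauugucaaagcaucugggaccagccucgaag

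Counted from the 5′ end, miR-130a-3p and miR-130b-3p differ at 2 of 22 bases, U11A and A13G. Over 22 bases starting at the base before the seed, the hairpins of Mir301 and Mir301b differ at 1 base, and the hairpins of Mir130a and Mir301 at 10. The family thus holds a Mir130 pair and a Mir301 pair that are near copies of each other outside the seed. No member shared a run of 20 nt with another microRNA hairpin. The longest shared run was 17 nt for Mir130a, with Mir6389, and 16 nt for Mir301 with Mir301b. Reads that matched several places are kept apart from the genes in the tables, so near copies can be undercounted, and how many mismatches the aligner allowed is not stated in the labels or files. The counts of Mir301 and Mir301b are therefore uncertain. Those of Mir130a and Mir130b, which differ at 2 bases, can be affected too, to an unknown extent.

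Mir130a (ENSMUSG00000065484.1) lies on chromosome 2 (84741115 to 84741178, minus strand, mm10) outside any other annotated gene on its strand, 991 bp from the nearest gene, Gm19426. Mir130b (ENSMUSG00000065572.1) and Mir301b (ENSMUSG00000076288.1) lie side by side on chromosome 16, at 17124061 to 17124142 and 17124400 to 17124496 on the minus strand, with 257 bp between them. Both are intronic in 3 of the 8 transcripts of the protein-coding gene 2610318N02Rik and exonic in 0. Mir301 (ENSMUSG00000065589.1) lies on chromosome 11 (87113004 to 87113089, plus strand), intronic in 2 of the 3 transcripts of Ska2, which encodes a kinetochore protein. The 4 genes thus come from 3 loci, and the neighbours on chromosome 16 belong to different sequence pairs.

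The family was abundant, and 1 member carried most of it. In replicate 1 the 4 genes had 152801 of 6373797 sense-strand counts, or 2.40%, with an exact Clopper-Pearson 95% interval from 2.385 to 2.409. In replicate 2 they had 176366 of 7630427, or 2.31% (2.301 to 2.322). The mean share was 2.35% ± 0.0608 (SD, n = 2), and 1.24% over all mapped reads listed, which include those matching several places or in no gene. Intervals cover counting error only, since reads without molecular identifiers are not independent molecules. Levels below are in CPM, counts scaled to a sense-strand total of 1000000. Each hairpin yields short products of like length, so no scaling by length was made, and the tables do not separate the 2 arms of a hairpin.

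Mir130a, the member best known from endothelium, had 129504 counts in replicate 1 and 148346 in replicate 2, or 20318 and 19441 CPM, with a mean of 19880 ± 620.0 (SD, n = 2). It ranked 13 of 1973 genes by mean CPM and supplied 84.8% of the family's counts in replicate 1 and 84.1% in replicate 2. Mir130b followed at 2109 and 1962 CPM, from 13440 and 14969 counts, and gave 8.64% ± 0.218 of the family. Mir301 came next at 1492 and 1653 CPM, from 9512 and 12614 counts, and gave 6.69% ± 0.656. Mir301b was far below the others at 54.1 and 57.3 CPM, from 345 and 437 counts, which was 0.237% ± 0.0156 of the family. In both hearts the order was Mir130a, Mir130b, Mir301, Mir301b, and no 2 members overlapped in their range over hearts. By mean CPM the ranks of the last 3 were 48, 59 and 191.

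**Figure D1:**
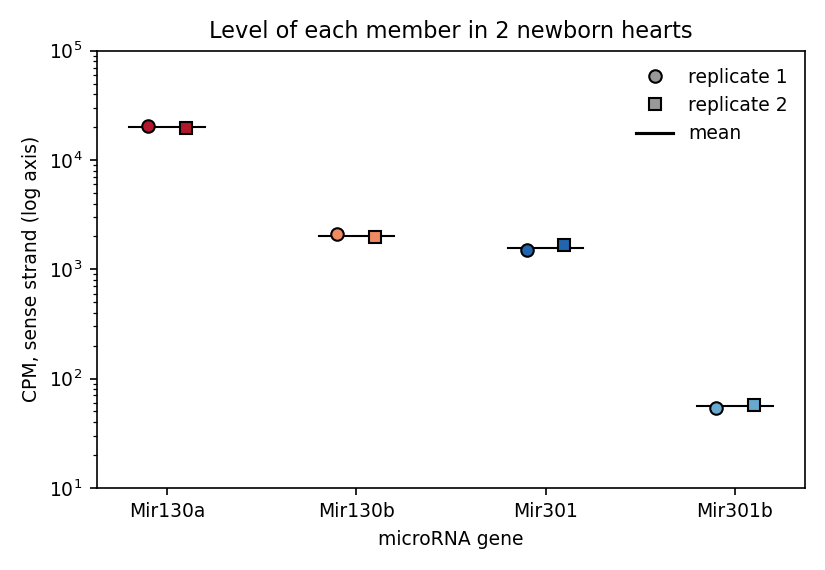
CPM on the sense strand (log axis) of the 4 members, with a circle for replicate 1, a square for replicate 2 and a line for the mean of the 2 hearts. Mir130a lies at 19441 and 20318 CPM, Mir130b and Mir301 lie between 1492 and 2109 CPM, and Mir301b lies between 54.1 and 57.3 CPM.

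The opposite strand was nearly empty at these genes. Mir130a had 2 counts there in each library, and the other 3 members had 0 in both, where a count of 0 allows up to 0.471 CPM in replicate 1 and 0.393 CPM in replicate 2 (3 counts). No gene is annotated on the opposite strand at any member. Adding the opposite strand thus changed no member by more than 2 counts.

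Ratios within a heart do not depend on the library total and separated the members further. Mir130a exceeded Mir130b by 9.64-fold in replicate 1 (95% interval 9.47 to 9.81) and 9.91-fold in replicate 2 (9.74 to 10.1). Mir301 exceeded its near copy Mir301b by 27.6-fold (24.8 to 30.8) and 28.9-fold (26.2 to 31.8). The ratios within each sequence pair thus lay close together in the 2 hearts, and their intervals overlapped. Across the sequence pairs the hearts stood further apart. Mir130a exceeded Mir301 by 13.6-fold (13.3 to 13.9) in replicate 1 and 11.8-fold (11.55 to 11.98) in replicate 2, and these intervals did not overlap. Mir130b exceeded Mir301 by 1.41-fold (1.38 to 1.45) and 1.19-fold (1.16 to 1.22), which did not overlap either. The ratios of Mir130a and Mir130b to Mir301b overlapped between hearts, at 375-fold and 339-fold for Mir130a, with the wider intervals that the few counts of Mir301b give. Of the 6 pairs, 4 had overlapping intervals and 2 did not. These intervals hold counting error only and carry no test.

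**Figure D2:**
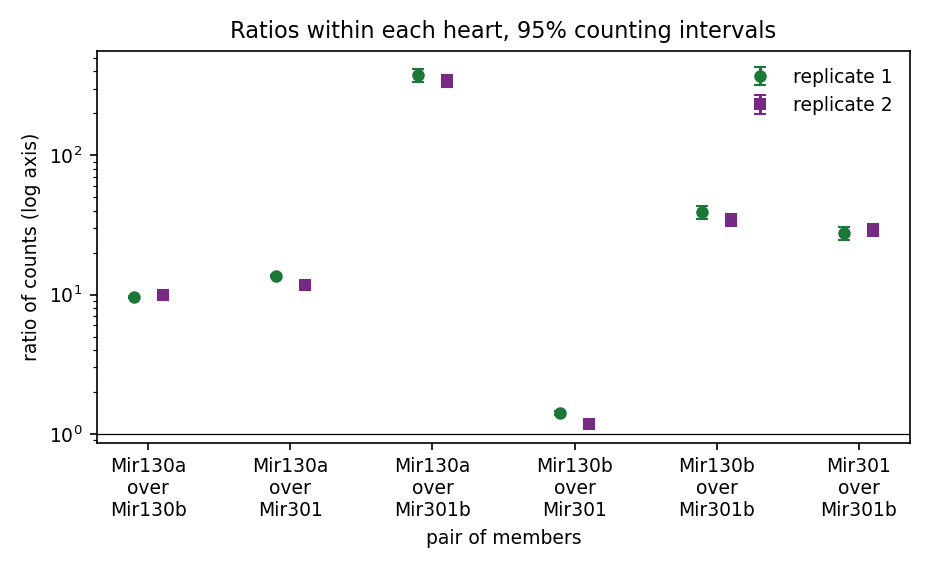
Ratio of sense counts (log axis) for the 6 pairs of members within replicate 1 (circles) and replicate 2 (squares), with exact 95% counting intervals as bars. All ratios lie above 1, from 1.19 for Mir130b over Mir301 in replicate 2 to 375 for Mir130a over Mir301b in replicate 1.

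The neighbours on chromosome 16 differed widely in level. Mir130b exceeded Mir301b by 39.0-fold in replicate 1 (35.0 to 43.5) and 34.3-fold in replicate 2 (31.1 to 37.8), an absolute log2 ratio of 5.19. Over all 95 pairs of adjacent microRNA genes on 1 strand within 10 kb, both with 10 or more counts in each library, the median absolute log2 ratio was 2.54 and the middle range 0.86 to 4.50. Of these pairs, 15 (15.8%) had a wider gap than Mir130b and Mir301b. That share was 7.94% with 100 or more counts in each library, and 8.62% without genes that share 20 nt with another hairpin, an alternative chosen after seeing the data. Of those 15 pairs, 10 held a gene with a mature sequence within 1 mismatch of another hairpin, against 23 of the 79 pairs with a narrower gap, and Mir301b is such a gene through Mir301. In the 61 pairs with no such copy the median was 2.01, and 5 of these pairs had a wider gap. The part of near copies in the low count of Mir301b was not tested.

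**Figure D3:**
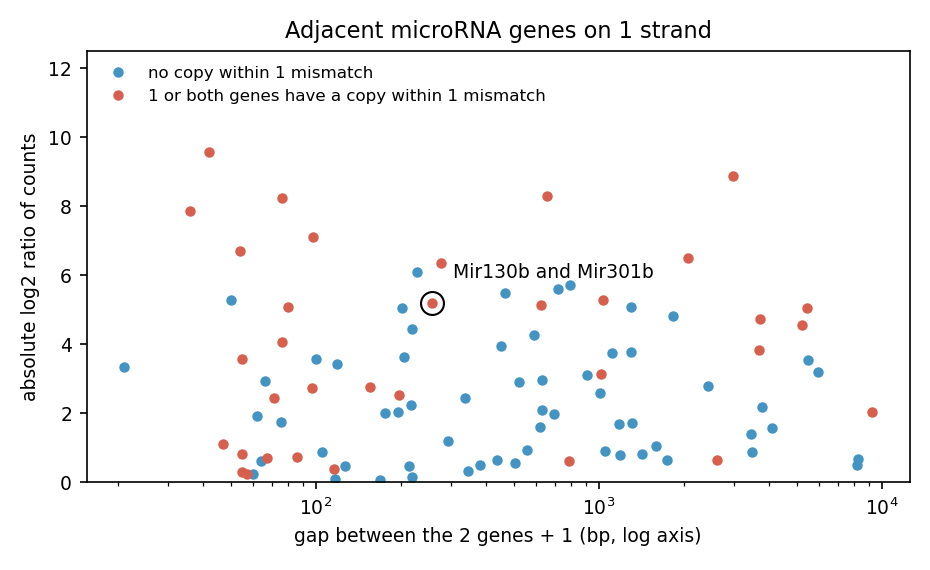
Absolute log2 ratio of counts between adjacent microRNA genes on 1 strand, against the gap between them plus 1 (bp, log axis), each point a pair and the mean of 2 hearts. Red points hold a gene with a copy within 1 mismatch, blue points do not, and the ring marks Mir130b and Mir301b at 257 bp and 5.19.

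Between the hearts the members differed little. Mir130a was 1.05-fold and Mir130b 1.07-fold higher in replicate 1, while Mir301 was 1.11-fold higher in replicate 2. The log2 ratios of replicate 2 over replicate 1 were -0.06 for Mir130a, with an adjusted p of 6.27e-30, -0.10 for Mir130b, with 8.14e-09, and 0.15 for Mir301, with 3.63e-13 (2-sided exact binomial test on the library totals, Benjamini-Hochberg adjusted over 435 genes). Mir301b had a log2 ratio of 0.08 and did not pass, with an adjusted p of 0.675 in the same exact test. So 3 of 4 members passed, beside 31% of all genes tested. The 2 higher in replicate 1 stood beside 12% of all genes in that direction, and the 1 higher in replicate 2 beside 19.1%. Depth matters here, since 62.3% of the 191 genes with at least as many counts as Mir301b passed. The median absolute log2 ratio was 0.09 over the members and 0.21 over all genes tested. The latter takes in genes with fewer counts than any member, whose ratios hold more counting noise. The 2 medians are thus not at like depth and do not show the members to be steadier than genes of like level.

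This test compares 2 libraries and counts sampling noise alone. In the edgeR exact test, which allows for spread between animals through a preset biological coefficient of variation of 0.1, no member passed, with 0 of 4 at an unadjusted p under 0.05. That coefficient was assumed and not measured in these hearts, so the outcome depends on the value chosen. In whole tissue, fewer cells of a type and less RNA per cell cannot be told apart. The 2 endothelial markers, both detected, summed to 146855 CPM in replicate 1 and 125176 in replicate 2, which follows Mir126a, while Mir139 was called higher in replicate 2 (log2 ratio 0.13). The 2 smooth muscle markers summed to 94054 and 87684 CPM, which follows Mir143, while Mir145a was not called (-0.01). The 3 fibroblast markers summed to 21494 and 19767 CPM, which follows Mir21a, while Mir199a-2 was called higher in replicate 2 (0.43) and Mir214 was not called (0.04). The 6 cardiac muscle markers summed to 122267 and 125003 CPM, which follows Mir208b, while Mir208a (-0.36) and Mir499 (-0.08) were called higher in replicate 1. In the endothelium, fibroblast and cardiac muscle lists, called markers thus differed in direction. In the fibroblast list this rests on Mir199a-2, which shares 20 nt with another hairpin, so its count is uncertain. The part of cell makeup in the members' differences was not tested.

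**Figure D4:**
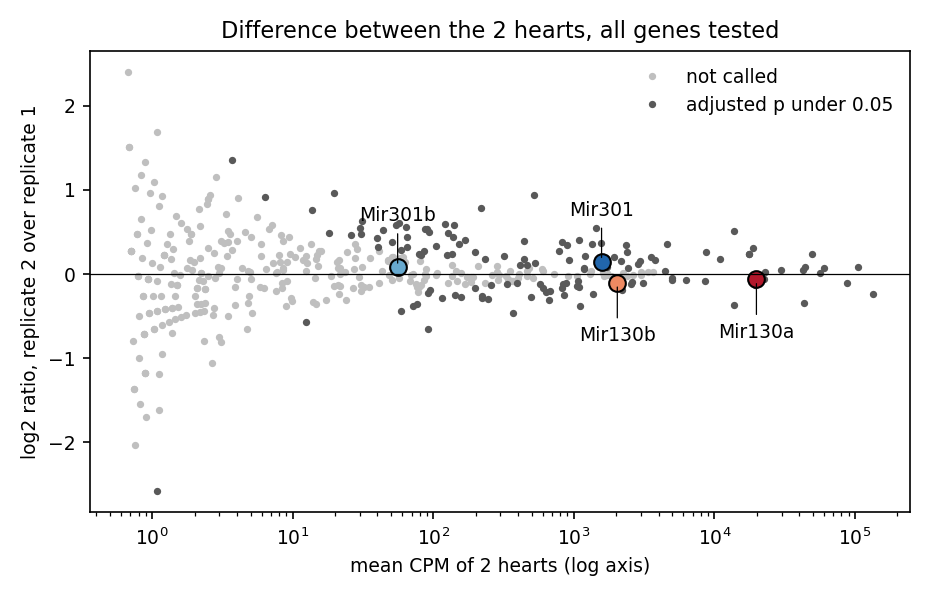
Log2 ratio of replicate 2 over replicate 1 against the mean CPM of the 2 hearts (log axis) for the 435 genes tested, dark points passing at an adjusted p under 0.05. The 4 members (coloured) lie between -0.10 and 0.15, close to the line of no difference.

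Other genes carrying the same seed were nearly silent. Mir130c, Mir6341 and Mir6389, whose mature sequences also begin with the family seed, were among the genes counted. Mir721, which has the seed too, was not found by name among them. The sequences of the 3 counted genes are shown for comparison with those of the members, with the seed in capitals.
miR-130c: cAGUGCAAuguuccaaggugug
miR-6341: cAGUGCAAugauauugucacuau
miR-6389: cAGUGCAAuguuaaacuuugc
Mir130c and Mir6341 had 0 counts in both libraries, and Mir6389 had 0 in replicate 1 and 1 in replicate 2. All 3 lie at or under the level of 3 counts. Among the genes counted, those with the seed AGUGCAA thus drew almost all their counts from the 4 members. The arms of a hairpin are not separated, so the level of the seed itself was not measured.

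Lists of microRNAs with a related seed ranged in summed level from somewhat below the family to far below it. Mir148a, Mir148b and Mir152 hold the first 6 letters of the family seed 1 base further in, as their mature sequences show, with bases 2 to 8 in capitals.
miR-148a-3p: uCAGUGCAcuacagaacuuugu
miR-152-3p: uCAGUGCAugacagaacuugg
This list had a summed level of 2252 ± 41.9 CPM (SD, n = 2) beside 23543 ± 608.0 for the members, and was led by Mir148a at 1822 CPM, between Mir130b and Mir301 by mean level. The 6 genes with the seed AAAGUGC, known for promoting proliferation and led by Mir17 at 8690 CPM, summed to 18533 ± 1637. The 4 Mir302 genes, known from pluripotent cells, summed to 149 ± 3.27 CPM, and the 3 Mir19 genes to 19.6 ± 1.35.

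The Mir17, Mir19 and Mir302 sums are uncertain too. Mir17, which leads its list, and Mir106a each have a copy within 1 mismatch in another hairpin. Mir19b-1, Mir19b-2, Mir302a and Mir302b share 20 nt with another hairpin. Mir19a has a mature sequence within 1 mismatch of another hairpin and stood at 12.4 CPM, next to Mir20a at 3762 CPM in the same cluster. The related lists were a chosen set. They do not hold all of the 72 mature sequences, of 1738, whose seed has the letters GUGC. Over members and these chosen lists together, the members held 54.7% of the counts in replicate 1 and 51.1% in replicate 2. These shares carry the same uncertainty. Of the related genes, 3 of the 6 in the Mir17 list were higher in replicate 2 and 1 in replicate 1, beside 19.1% and 12% of all genes. In the Mir148 list 1 of 3, Mir152, was higher in replicate 1, and 0 of the 4 Mir302 and 0 of the 3 Mir19 genes passed the exact binomial test, which counts sampling noise alone.

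**Figure D5:**
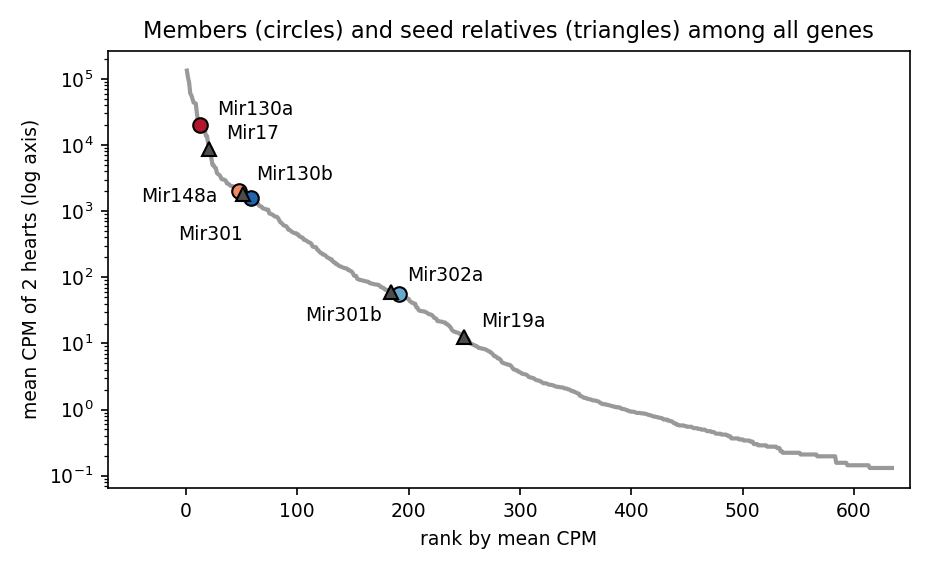
Mean CPM of the 2 hearts (log axis) against rank for all genes above 0.1 CPM (grey line), with the members as circles and the leading gene of each related list as triangles. Mir130a sits at rank 13, above Mir17, while Mir301b sits at rank 191 beside Mir302a.

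Genes of like abundance put the members on the scale of the whole heart. The 2 genes ranked just above and the 2 just below each member were compared by the absolute difference of log2 mean CPM over 2 libraries. Nearest to Mir130a was Mir21a, known from cardiac fibroblasts, at 20161 and 18387 CPM, a difference of 0.04, and its range overlapped that of Mir130a. Mir23a and Mir22, ranked above, did not overlap it. Nearest to Mir130b was Mir483, at 1808 and 2073 CPM, a difference of 0.07. Nearest to Mir301 was Mir425, at 1363 and 1758 CPM, a difference of 0.01. Nearest to Mir301b was Mir181a-2, at 57.4 and 55.7 CPM, a difference of 0.02, though Mir181a-2 shares 20 nt with another hairpin. Of the 16 such neighbours 14 overlapped their member over the 2 hearts. The neighbours were chosen by mean CPM of the same libraries, so overlap was likely from the choice and is no separate result. With 2 libraries, likeness across samples could not be measured.

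A list of 16 microRNA names from vessels, hypoxia and growth gave the setting in which the family is best known. Of these names, Mir424 was not found among the genes counted. Among those counted, Mir92-1, Mir27b and Mir23b share 20 nt with another hairpin, so their counts and calls are uncertain. Of the 15 genes of the list that were counted, 7 were higher in replicate 2 and 5 in replicate 1 by the exact binomial test, and 3 did not pass. This stood beside 19.1% and 12% of all genes tested and 62.3% called at the depth of Mir301b or above. As for the members, these calls count sampling noise alone, and with a preset spread of 0.1 the edgeR exact test called 1 of 435 genes (30 at an unadjusted p under 0.05). Their median log2 ratio was 0.02, beside 0.02 over all genes tested and 0.01 over the members. Among them the endothelial Mir126a had 144115 CPM in replicate 1 and 122186 in replicate 2, and the hypoxia-linked Mir210 was at 1055 CPM by mean, below Mir301.

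The labelled tissue was checked against its markers. The cardiac muscle list summed to 123635 ± 1935 CPM, nearly all from Mir208b, Mir208a and Mir499, while Mir1a-1, Mir133a-1 and Mir133a-2 had 8.89, 8.24 and 2.08 CPM and each share 20 nt with another hairpin, so their counts are uncertain. The endothelium list summed to 136016 ± 15330 CPM and the smooth muscle list to 90869 ± 4505. The fibroblast list summed to 20631 CPM, the erythroid list to 1247, the leukocyte list to 575, the epithelial list to 137, the skeletal muscle list to 93.3 and the hepatocyte marker Mir122 to 40.2. Of the 4 leukocyte markers 3 were counted, and Mir142 was not found by name. Of the 5 neuronal genes counted, 4 were at 0 in both libraries. Each of the 5 shares 20 nt with another hairpin, so their counts are uncertain.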

How the data were processed

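MicroRNA sequencing was carried out on 2 newborn mouse hearts, 1 library each. The deposited values are raw read counts per gene with no normalization. Per the text files deposited beside the tables, the authors used assembly mm10 with GENCODE annotation M4 and derived each table from 1 alignment file. For the aligner, counter, trimming and mismatch limit, the sources used here give nothing.

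Of the 3 count columns, the first equals the sum of the others in every gene row and the second holds 92.9% and 92.8% of gene counts, so the second was read as the sense strand from the values. Totals leave out 4 rows with no gene name, which hold 50.5% and 52.4% of all reads. Reads matching several places were 35.9% and 34.6% of all reads. Gene names and positions came from GENCODE M21 on the same build, with 1894 of 1973 identifiers matched and 5 counts in the others over both strands and libraries. CPM used the sense totals of 6373797 and 7630427.

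Levels are the mean ± SD of 2 hearts with exact Clopper-Pearson 95% intervals. With 1 group no contrast exists, so the hearts were compared over all genes with 10 or more counts by 2-sided exact binomial tests with Benjamini-Hochberg adjustment at a threshold of 0.05. For log2 ratios 0.5 was added to each count. This test was also run on simulated data that held set fold changes and counting noise alone. That run cannot show how the test behaves with spread between hearts. Mature sequences were compared with all GENCODE microRNA hairpins on both strands. Alternatives were both strands, other totals, TMM and DESeq2 size factors, other count minimums, thinning, and edgeR exact tests with a preset spread. Named genes were the members, genes with their seed, rank neighbours, list leaders and markers. Members and lists were chosen with earlier results of these data known. Tests ran in SciPy 1.17.1 under Python 3.11.15 and in edgeR 4.0.16 under R 4.3.3, with size factors from DESeq2 1.42.0 and plots from matplotlib 3.10.9.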

Additional observations from a re-analysis of the deposited data

How the results depend on the processing

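The family share of 2.35% moved with its denominator by more than the spread between hearts. It was 2.19% with counts of both strands, 2.72% with Mir126a left out of the total, 2.53% without genes that share 20 nt with another hairpin and 1.24% over all mapped reads listed. Each heart alone gave 2.31% and 2.40%. All 3 members that passed between hearts also passed in 7 of 9 alternatives, including TMM and DESeq2 size factors, and no log2 ratio changed sign. With edgeR exact tests that preset the biological coefficient of variation to 0.1 and 0.2, 0 members passed in either (lowest unadjusted p 0.513 and 0.744), and 1 and 0 of 435 genes did, with 30 and 4 at an unadjusted p under 0.05. Those tests add an assumed spread, not measured in these hearts, that the exact binomial test lacks. The share of neighbour pairs with a wider gap than Mir130b and Mir301b, 15.8%, was 16.7% within 2 kb, 7.94% with 100 or more counts and 14.7% to 15.8% in each heart alone. It was 8.62% without genes that share 20 nt, an alternative chosen after seeing the data. Fewer pairs enter these alternatives, 78, 63 and 58. The 18 alternatives of the pair ratios kept their direction, and the order of the 4 members held in each heart. The members' part of members and chosen related lists together was 51.1% to 54.7%. No paired analysis was possible because the labels give 1 group. Depth limits Mir301b most, at 345 and 437 counts.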
